A study of Danio rerio with 4 samples.

Results

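The genes described here are the cyclins that pace the phases of the cell cycle in adult zebrafish hearts, wild type or lacking the enhancer LEN, before and after amputation. The 10 genes were fixed by name: ccnd1, ccnd2a, ccnd2b and ccnd3 for G1, ccne1 and ccne2 for entry into S phase (G1/S), ccna2 for S to G2, and ccnb1, ccnb2 and ccnb3 for G2/M. All 10 were found among the 32520 Ensembl gene IDs of the count tables. The name table gives both ccnd2 copies the single symbol CCND2, so they are told apart below by their IDs, ENSDARG00000070408 and ENSDARG00000051748, and which of them is ccnd2a is not given in the sources used here. Testing required at least 1 CPM (counts relative to library size, after TMM scaling) in at least 1 library, and 9 of the 10 passed, among 16509 genes in all. Each of the 9 reached 1 CPM already in the uninjured wild-type library, so none was admitted by its injured value alone.

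Each of the 4 groups was 1 library of heart RNA from adult fish of the Ekkwill strain. Their genotypes were LEN+/+ or LEN[delta]/[delta], with LEN missing on both chromosomes of the mutant, and the hearts were either uninjured or taken 3 days after amputation (3 dpa). The number of hearts per library is not given in the labels. LEN is known as a regeneration enhancer of lepb (leptin b), and lepb had 78 counts in wild type at 3 dpa against 2 in each other library.

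Cyclins are the regulatory partners of the cyclin-dependent kinases (CDKs). D cyclins respond to growth signals and bind Cdk4 or Cdk6 in G1, E cyclins bind Cdk2 at the start of DNA replication, cyclin A2 serves Cdk2 and Cdk1 from S phase into G2, and B cyclins drive mitosis with Cdk1. Transcripts of the E, A and B cyclins accumulate in their own phase in dividing cells, whereas D cyclin transcripts are also present in cells that are not dividing. In the zebrafish heart, amputation is followed by division of epicardial, endocardial, immune and muscle cells, which bulk RNA does not separate. No sequence of these genes is printed here.

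Total counts per library ranged from 31618442 to 35026983. The uninjured wild-type library stood apart in liver genes: the 8 hepatocyte markers summed to 1155 CPM there, against 41.3 CPM in the uninjured mutant and 388 and 419 CPM at 3 dpa. Nearly all of the CPM elsewhere came from tfa, at 40.2 CPM in the uninjured mutant and 388 and 419 CPM at 3 dpa. Unlike the other markers, tfa was not lower at 3 dpa than in uninjured wild type (360 CPM). By contrast, serpina1 was at 0 in the other 3 libraries. Cardiomyocyte markers were abundant in every library, between 17287 and 29072 CPM in sum over 10 gene IDs. With 1 library per group, no ratio of 2 libraries below has a replicate check. Where a ratio carries a 95% interval, it is for counting error only, and exact unless named as delta-method. Most ratios of genes other than the cyclins are printed without one. Reads are not independent molecules, so the true error is larger.

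After amputation, cyclins of S phase and mitosis were several-fold higher, while ccnd1 and 1 of the CCND2 copies stayed within 2-fold of their uninjured level. In wild type, 7 of the 9 tested cyclins were called higher at 3 dpa, meaning at least 2-fold with an interval that left out equal abundance, and none was called lower. The same rule called 13.2% of all tested genes higher and 6.76% lower in wild type. In the mutant, 7 of 9 cyclins were again called higher, against 14.7% of all tested genes, and none lower, against 5.62%. The median log2 ratio in wild type was 0.44 for the 3 tested G1 cyclins, 1.61 for the 2 G1/S cyclins, 3.24 for ccna2 and 2.74 for the 3 G2/M cyclins. For mutant hearts these medians were 0.68, 2.84, 3.90 and 3.38. Over all tested genes the median ratio was 0.03 for wild-type and 0.04 for mutant hearts. Of all genes called in wild type, 66.2% were higher, 82.5% under plain total counts and 57.2% with upper-quartile scaling. For mutant hearts 72.3% were higher, 90.6% under total counts and 61.8% with upper-quartile scaling. In bulk RNA, more cells of a type and more cyclin RNA per cell cannot be told apart.

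**Figure D1:**
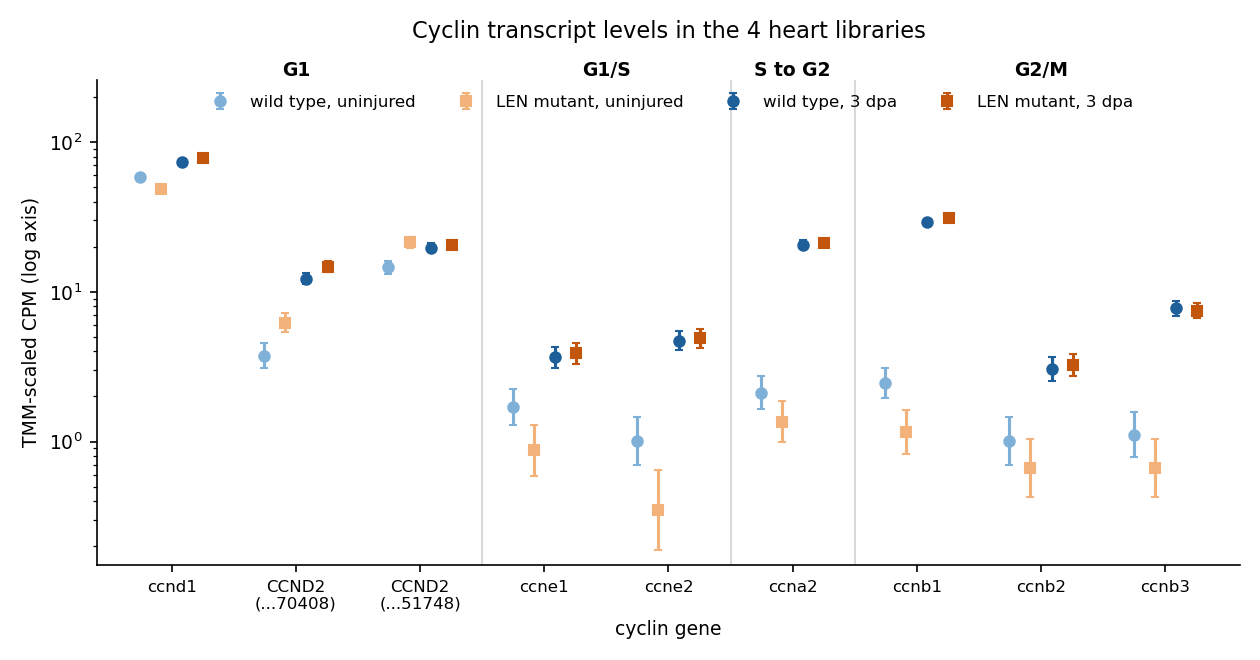
TMM-scaled CPM (log axis) of the 9 tested cyclins in each of the 4 libraries, with Wilson 95% intervals for counting error as bars and genes grouped by phase. The 3 dpa points of the E, A and B cyclins lie above both uninjured points, for example 29.1 and 30.9 CPM against 2.47 and 1.15 CPM for ccnb1.

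Among the G2/M cyclins, ccnb1 (ENSDARG00000051923), the main mitotic partner of Cdk1, had the largest ratio. It had 71 counts in uninjured wild type, 33 in the uninjured mutant, 1115 in wild type at 3 dpa and 1201 in the mutant at 3 dpa. Both injured libraries were far above both uninjured ones. The log2 ratio was 3.53 in wild type (95% counting interval, 3.21 to 3.93), an 11.5-fold rise, and 4.68 in the mutant (4.25 to 5.29), a 25.6-fold rise. Counted from the highest ratio, ccnb1 ranked 80 in wild type and 32 in the mutant among the tested genes.

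The other B cyclins had fewer counts. The gene ccnb3 (ENSDARG00000034855), a B-type cyclin with features of A cyclins, gave 32 and 19 counts uninjured and 297 and 290 at 3 dpa, in wild type and mutant respectively. Its log2 ratios were 2.74 (2.27 to 3.37) and 3.38 (2.82 to 4.25). The gene ccnb2 (ENSDARG00000036180), whose mammalian protein is linked to the Golgi, gave 29 and 19 counts uninjured and 117 and 126 at 3 dpa. It had the lowest injury ratios of the B cyclins, 1.54 (1.0 to 2.24) for wild-type and 2.19 (1.59 to 3.07) for mutant hearts.

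The S to G2 cyclin ccna2 (ENSDARG00000011094) was the next highest in ratio. It had 61 counts in uninjured wild type, 39 in the uninjured mutant, 789 in wild type at 3 dpa and 823 in the mutant at 3 dpa. Its log2 ratios were 3.24 (2.90 to 3.68) for wild-type and 3.90 (3.50 to 4.46) for mutant hearts. Its relative CCNA1, known from the mammalian germ line, stayed at 10 counts or fewer in every library and was not tested.

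The E cyclins, which bind Cdk2, had between 10 and 49 counts each in the uninjured libraries. For ccne2 (ENSDARG00000098529) there were 29 counts in uninjured wild type, 10 in the uninjured mutant, and 180 and 190 at 3 dpa. Its log2 ratios were 2.15 (1.65 to 2.84) for wild-type and 3.60 (2.90 to 4.89) for mutant hearts. For ccne1 (ENSDARG00000098622) there were 49, 25, 140 and 151 counts in the same order. Its log2 ratio was 1.07 in wild type (0.62 to 1.60), just past the 2-fold line and short of it under 2 alternative settings (0.97 with upper-quartile scaling, 0.98 with a prior count of 10). In the mutant it was 2.08 (1.54 to 2.83).

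Of the D cyclins, ccnd1 had the most reads in every library. For ccnd1 (ENSDARG00000101637), the classical G1 sensor of growth signals, there were 1670 counts in uninjured wild type, 1391 in the uninjured mutant, 2820 in wild type at 3 dpa and 3031 in the mutant at 3 dpa. Its log2 ratios of 0.34 (0.25 to 0.43) and 0.68 (0.59 to 0.78) stayed below the 2-fold line, although both intervals lay above 0. Over the 6 scalings its ratio ranged from 0.23 to 0.61 in wild type and from 0.56 to 0.999 for mutant hearts, the highest under total counts.

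The 2 CCND2 copies, further partners of Cdk4 and Cdk6, had different ratios. The copy ENSDARG00000070408 had 108 counts in uninjured wild type, 178 in the uninjured mutant, and 470 and 571 at 3 dpa. It was the 1 D cyclin called higher, with log2 ratios of 1.69 (1.40 to 2.02) for wild-type and 1.23 (0.998 to 1.49) for mutant hearts. The copy ENSDARG00000051748 had 418, 613, 757 and 800 counts in the same order, with log2 ratios of 0.44 (0.27 to 0.62) and -0.05 (-0.21 to 0.10). In the mutant its sign changed with the scaling, to 0.26 under total counts. How the authors' counting divided reads between such copies is not given in the sources used here. The last D cyclin, ccnd3 (ENSDARG00000027391), had 1 count in the mutant at 3 dpa and 0 in the other libraries, which allows at most 0.077 to 0.105 CPM at the floor of 3 counts.

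**Figure D2:**
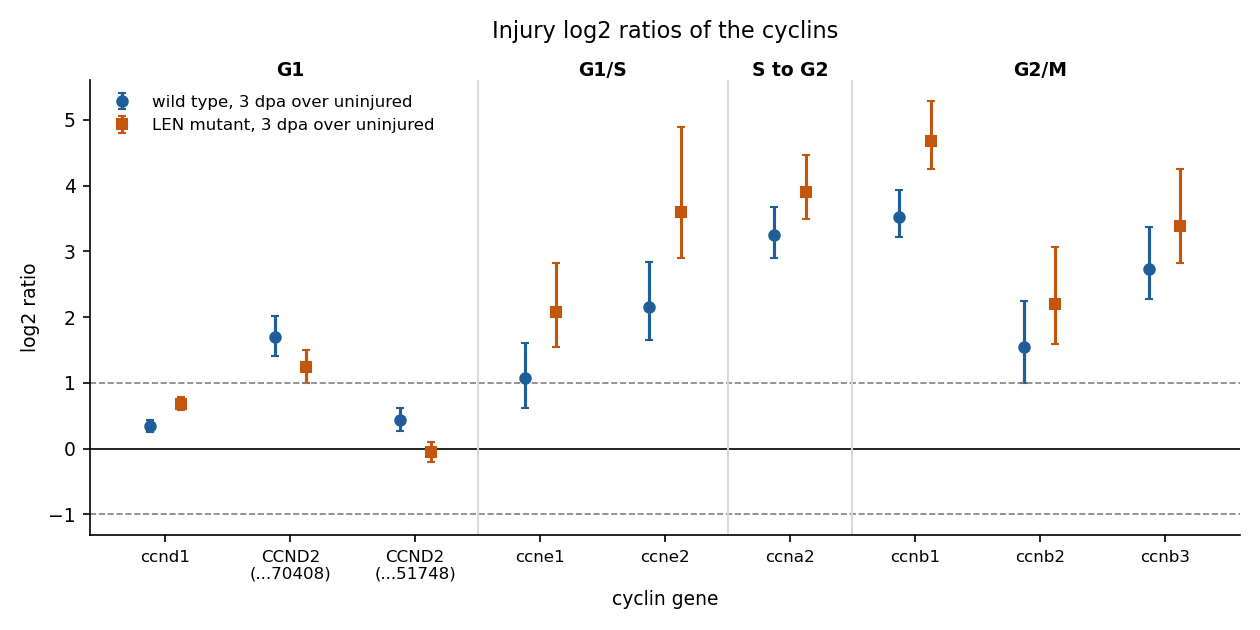
Log2 ratio of 3 dpa over uninjured hearts for the 9 tested cyclins, in wild type (circles) and the LEN mutant (squares), with exact 95% counting intervals as bars and the 2-fold lines dashed. The A and B cyclins lie between 1.54 and 4.68, while ccnd1 and the CCND2 copy ENSDARG00000051748 stay between -0.05 and 0.68.

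The injury effect was also tested across genotypes. An additive fit of genotype and injury over all 4 libraries (edgeR's quasi-likelihood test) leaves 1 residual degree of freedom, so the spread it uses is the unequal response of the 2 genotypes, steadied by information from all genes. In this fit 8 of the 9 cyclins rose with injury at a Benjamini-Hochberg adjusted p under 0.05, against 25.4% of all tested genes called higher and 20.3% called lower. The adjusted p was 2.79e-05 for ccna2 (log2 fold change 3.59), 4.15e-05 for ccnb1 (4.08), 1.09e-04 for ccnb3 (3.11) and 0.00267 for ccnb2 (1.92). It was 9.17e-04 for ccne2 (2.87) and 0.00628 for ccne1 (1.59). The CCND2 copy ENSDARG00000070408 had an adjusted p of 4.64e-04 (1.46) and ccnd1 one of 0.00901 (0.51), a change under 2-fold. The CCND2 copy ENSDARG00000051748 was the exception, with a log2 fold change of 0.19 and an adjusted p of 0.333, and it passed under total counts (0.0356). DESeq2 with the same design called the same 8 cyclins. This fit takes the wild-type and mutant hearts as repeats of the injury effect and is no test within either genotype.

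That the A and B cyclins rose more than ccnd1 does not rest on the scaling. The ratio of 1 cyclin's count to another's within a library needs none. The count of ccnb1 per count of ccnd1 went from 0.0425 to 0.395 with injury in wild type, a 9.30-fold change (log2 change 3.22, delta-method 95% counting interval 2.86 to 3.57). In the mutant it went from 0.0237 to 0.396, a 16.7-fold change (4.06, 3.55 to 4.57). Relative to ccnd1, ccna2 changed 7.66-fold in wild type and 9.68-fold in the mutant, and ccne1 changed 1.69-fold and 2.77-fold. The pairs counted next reuse the same few cyclins in single libraries, so they are not separate observations. Of the 9 pairs of a G2/M cyclin over a G1 cyclin, 8 had an interval above 0 in wild type, and in the mutant all 9 did. The exception was ccnb2 over the CCND2 copy ENSDARG00000070408, with a change of -0.11 in wild type. Of the 6 pairs of an E cyclin over a D cyclin, 4 had an interval above 0 and 1 below 0 in wild type, and all 6 were above 0 in the mutant. Between the genotypes in uninjured hearts, mutant over wild type, all 6 of these E over D pairs and 7 of the 9 G2/M over G1 pairs had intervals below 0. At 3 dpa 0 of 6 and 1 of 9 did. The B cyclins had no common order against ccna2. With injury in wild type, ccnb1 over ccna2 changed by 0.28 (-0.23 to 0.79) and ccnb2 over ccna2 by -1.68 (-2.38 to -0.98).

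The same shift showed in the summed reads. G1 cyclins took 89.0% of the counts on the 10 cyclins in uninjured wild type (Wilson 95% interval, 87.7 to 90.2%) and 60.5% at 3 dpa (59.4 to 61.7%). In the mutant they took 93.8% uninjured (92.7 to 94.7%) and 61.3% at 3 dpa (60.2 to 62.4%). The G1 cyclins themselves did not fall: their summed CPM went from 76.3 to 106 in wild type and from 76.1 to 113 in the mutant. The G2/M share went from 5.35% (4.53 to 6.31%) to 22.9% (21.9 to 23.9%) in wild type, and from 3.05% (2.43 to 3.83%) to 22.5% (21.6 to 23.5%) in the mutant. Single genes weighed most in these shares: in wild type at 3 dpa, ccnd1 held 2820 of 4047 G1 counts and ccnb1 1115 of 1529 G2/M counts. Transcript lengths were not used here, so these shares are of reads and compare libraries, not the abundance of 1 cyclin with another.

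**Figure D3:**
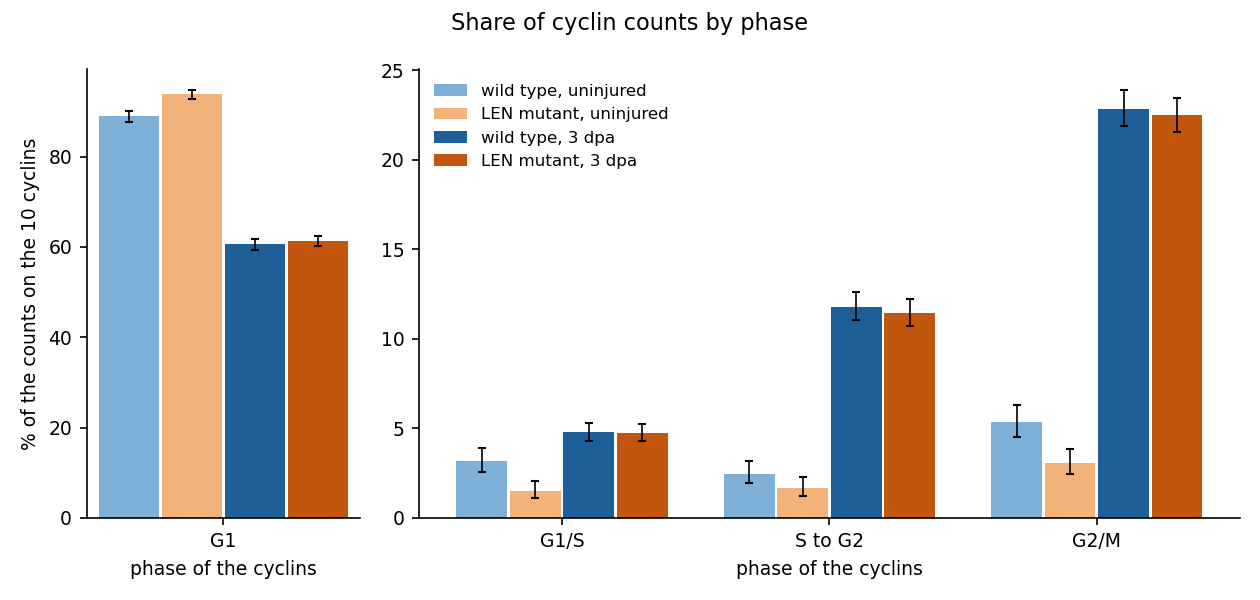
Percent of the counts on the 10 cyclins that fell on each phase, by library, with Wilson 95% intervals; the G1 panel has its own axis, and both axes start at 0. The G2/M share is 22.9% and 22.5% at 3 dpa against 5.35% and 3.05% uninjured.

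Between the genotypes at 3 dpa, the cyclins differed little. None of the 9 was called in either direction, against 2.24% of all tested genes called higher in the mutant and 0.769% called lower. The log2 ratios, mutant over wild type, ran from -0.05 for ccnb3 (-0.29 to 0.19) to 0.26 for the CCND2 copy ENSDARG00000070408 (0.08 to 0.44). For ccnb1 the ratio was 0.09 (-0.03 to 0.21) and for ccna2 0.04 (-0.10 to 0.18), so counting error alone bounds either difference at 3 dpa well inside 2-fold. The least certain was ccnb2, at 0.09 (-0.29 to 0.46).

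In uninjured hearts the cyclins pointed in 2 directions. The mutant library was lower in all 6 E, A and B cyclins and in ccnd1, and higher in both CCND2 copies. Only ccne2 (log2 ratio -1.39, 95% counting interval -2.73 to -0.45) and ccnb1 (-1.06, -1.74 to -0.49) were called lower, 2 of 9 against 4.09% of all tested genes. No cyclin was called higher, against 3.92%. The call of ccnb1 was lost at a prior count of 10 (-0.93). These differences rest on few reads: 29 against 10 counts for ccne2 and 71 against 33 for ccnb1.

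Other members were below the 2-fold line in the uninjured comparison. The ratio was -0.92 for ccne1 (-1.72 to -0.24), -0.62 for ccna2 (-1.26 to -0.04) and -0.26 for ccnd1 (-0.36 to -0.15), with intervals below 0. The intervals of ccnb3 (-0.70, -1.65 to 0.12) and ccnb2 (-0.56, -1.52 to 0.28) included 0. The CCND2 copies stood at 0.72 for ENSDARG00000070408 (0.37 to 1.08) and 0.56 for ENSDARG00000051748 (0.38 to 0.74). Set against ccnd1 within each library, the first of these copies was 1.98-fold higher in the mutant and the second 1.76-fold. The hepatocyte markers were high in the wild-type library of this comparison, and all 8 were called lower in the mutant. With TMM recomputed without the 213 genes at least 4-fold higher in that library than in every other, the ratios were -1.39 for ccne2 and -1.07 for ccnb1. Erythroid markers were also lower in the uninjured mutant, at 2903 against 4335 CPM in sum, with all 5 tested ratios below 0, a median of -0.39 and 0 called. The part of liver or blood RNA in these cyclin ratios was not tested.

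**Figure D4:**
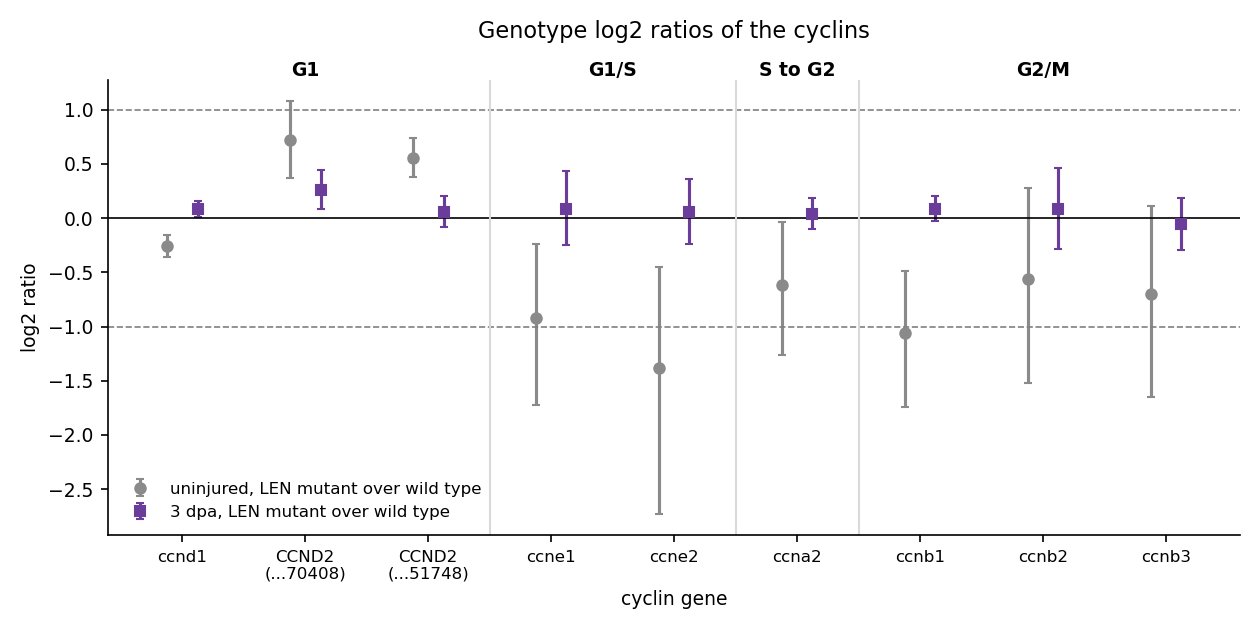
Log2 ratio of LEN mutant over wild type for the 9 tested cyclins, in uninjured hearts (circles) and at 3 dpa (squares), with exact 95% counting intervals as bars and the 2-fold lines dashed. Uninjured ratios spread from -1.39 to 0.72, and those at 3 dpa lie between -0.05 and 0.26.

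Subtracting the wild-type injury ratio from the mutant one compares the 2 responses, with the same counts. On the log2 scale this gave 1.44 for ccne2 (delta-method 95% counting interval, 0.44 to 2.45), 1.15 for ccnb1 (0.56 to 1.74) and 1.01 for ccne1 (0.26 to 1.76). These 3 of 9 passed the 2-fold line, against 4.36% of all tested genes higher in the mutant, and none passed in the other direction, against 1.48%. At 3 dpa the genotypes were close in these 3 cyclins, with log2 ratios of 0.06 for ccne2 and 0.09 for both ccnb1 and ccne1. Their differences thus come almost wholly from the low-count uninjured ratios, -1.39 for ccne2, -1.06 for ccnb1 and -0.92 for ccne1. For the CCND2 copies the difference was -0.46 (-0.84 to -0.07, ENSDARG00000070408) and -0.50 (-0.72 to -0.27, ENSDARG00000051748), and for ccnd1 0.34 (0.22 to 0.47). No degree of freedom is left to test these differences against the spread between hearts. Averaged over both injury states, the additive edgeR fit called 0 of 9 cyclins for genotype, against 2.5% of all tested genes higher and 0.763% lower. At an unadjusted p under 0.05 edgeR called 1 of the 9, the CCND2 copy ENSDARG00000070408, against 2757 of all 16509 tested genes. That count does not exceed the background. DESeq2 called 0 of 9 before adjustment, against 1406 of 16509, and 0 of 9 after it, against 346.

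Among the kinases the cyclins bind, those of S phase and mitosis were called. Of the 5 CDK genes listed, 2 were called higher with injury in each genotype, against 13.2% and 14.7% of all tested genes. CDK1, the partner of A and B cyclins, had 73 and 40 counts uninjured and 1290 and 1320 at 3 dpa, with log2 ratios of 3.70 in wild type and 4.55 in the mutant. CDK2, the partner of E and A cyclins, had ratios of 1.93 and 1.97. The G1 kinases, named after their values were seen, had small ratios: -0.12 and 0.33 for CDK4, and 0.62 and 0.21 for CDK6. In uninjured hearts CDK6 was higher in the mutant (0.77), as were the CCND2 copies, and CDK4 was lower (-0.61), as was ccnd1, with no call for any of them.

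Of the 68 tested genes in the 8 lists of cell cycle regulators around the cyclins, 28 were called higher with injury in wild type, against 13.2% of all tested genes, and 29 in the mutant, against 14.7%. In wild type 0 were called lower, against 6.76%, and 1 was for mutant hearts, against 5.62%. Wild-type list medians were 2.07 for replication licensing (8 of 10 called higher) and 1.23 for pocket proteins and E2F factors (6 of 10). They were 1.93 for enzymes that activate or inhibit CDKs together with small CDK-binding proteins (6 of 7), and 0.40 for parts and regulators of the ligases that destroy cyclins (3 of 10). The CDK inhibitors had a median of -0.25, with 0 of 5 called in wild type. In the mutant 1 inhibitor was called higher, CDKN2C (1.01), an inhibitor of Cdk4 and Cdk6, and 1 lower, cdkn1ca (-1.26), of the p57 family. In wild type both genes changed in the same direction but fell short of the 2-fold line. There CDKN2C was at 0.86 (counting interval 0.46 to 1.30) and cdkn1ca at -0.89 (-1.60 to -0.28).

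The genes named here had the largest absolute wild-type injury ratios of their lists and do not stand for the other genes in them. In wild type and mutant respectively, the injury log2 ratios were 3.54 and 4.03 for CDC20, the activator of the ligase that destroys B cyclins, and 3.18 and 4.34 for its ubiquitin-conjugating enzyme UBE2C. They were 3.44 and 4.09 for CKS1B and 2.82 and 3.01 for cks2 (ENSDARG00000071410), small CDK-binding proteins. The transcription factors of late cell cycle genes FOXM1 (3.39 and 4.43) and MYBL2 (ENSDARG00000032264, 3.31 and 3.32) were the 2 of 7 in their list called higher in each genotype. The gene mybl2a of the same list was not called (-0.07 and -0.10), and the list medians were 0.17 and 0.09.

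Genes of the start of the cycle were called as well. The E2F repressor E2F8 had ratios of 2.38 and 3.20, and e2f2 had 2.20 and 2.09. Of the replication helicase subunits, MCM6 (ENSDARG00000057683) had 3.06 and 3.15, and MCM3 had 2.86 and 3.37. In uninjured hearts 49 of the 68 genes had a ratio below 0 between mutant and wild type, against 8730 of all 16509 tested genes, and 2 of 68 were called lower, UBE2C (-1.26) and CCNF (-1.05). With 4.09% of all tested genes called lower, that count does not exceed the background.

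Of 14 tested cyclins outside the phase series, 1 was called higher in wild type, against 13.2% of all tested genes, and 2 in the mutant, against 14.7%. These counts are near the background, and the median ratios were -0.08 and -0.04. The called gene in both was CCNF, a cyclin that serves as a ubiquitin ligase adaptor in G2, with 35 and 16 counts uninjured and 465 and 472 at 3 dpa (3.26 and 4.30). CCNG2, linked to cell cycle arrest, was the second in the mutant (1.003 against 0.66 in wild type). CCNJ was not called (0.72 and 0.65).

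**Figure D5:**
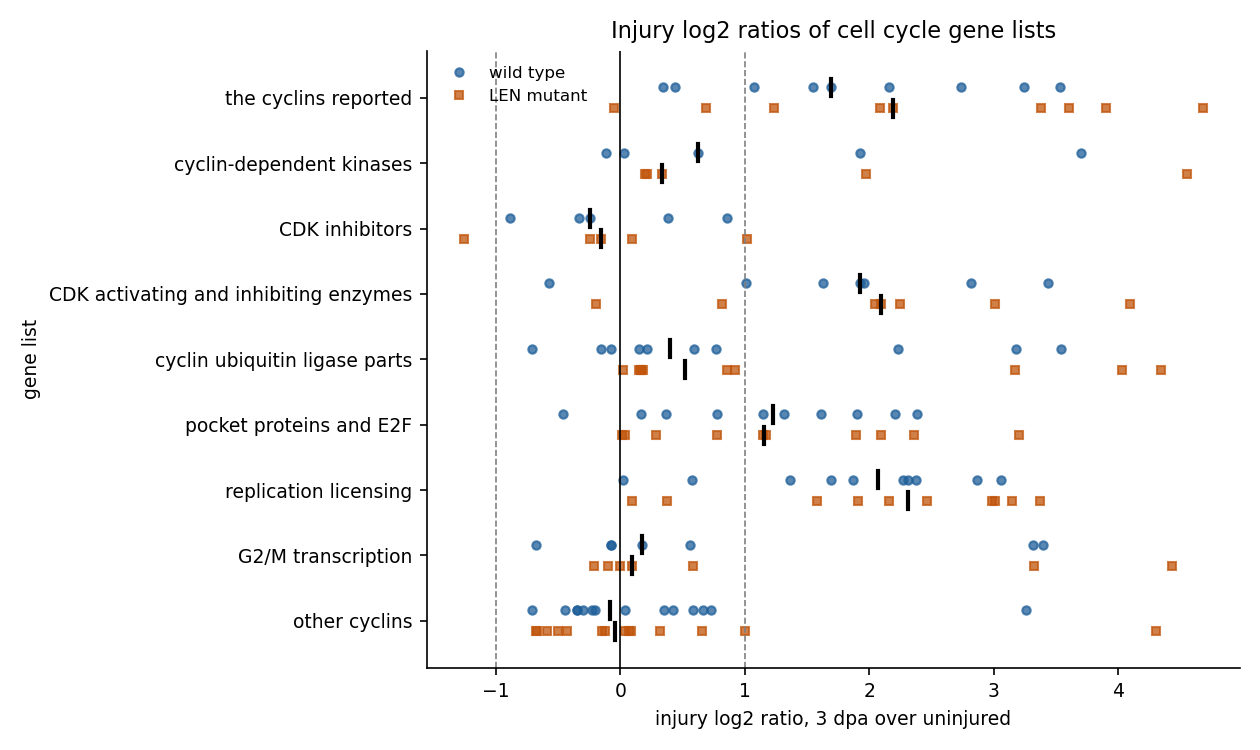
Injury log2 ratio of every tested gene in the 8 lists and of the 9 tested cyclins, in wild type (circles) and the LEN mutant (squares), with black ticks at list medians and the 2-fold lines dashed. Replication licensing genes have a median of 2.07 in wild type, against -0.08 for the other cyclins.

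Cell type markers moved with injury as well. For the counts of called markers below, the shares over all tested genes were 13.2% higher and 6.76% lower in wild type. In the mutant they were 14.7% higher and 5.62% lower. Leukocyte markers summed to 91.7 and 92.0 CPM uninjured and to 291 and 345 CPM at 3 dpa in wild type and mutant, with 5 of 6 called higher in each and none at 0. Epicardial markers went from 663 and 753 CPM to 1754 and 1739 CPM (6 of 6 called in wild type, 4 in the mutant), and fibroblast markers from 1320 and 1043 CPM to 7823 and 6258 CPM (4 of 6 in each). Most of the fibroblast sums at 3 dpa came from col1a1a (3203 and 2468 CPM) and COL1A2 (3369 and 2693 CPM). PDGFRA (log2 ratios 0.24 and 0.16) and the POSTN copy ENSDARG00000043806 (0.51 and 0.47) were not called. Erythroid markers went from 4335 and 2903 CPM to 9012 and 6897 CPM (2 and 3 of 5 tested called), and thrombocyte markers from 193 and 205 CPM to 396 and 365 CPM (2 of 5 tested called in each). The called thrombocyte markers were the THBS1 copies, with log2 ratios of 1.18 and 1.34 in wild type and 1.02 and 1.09 in the mutant. In wild type and mutant respectively, itga2b (0.06 and 0.06), mpl (0.30 and 0.03) and gp9 (-0.25 and -0.51) were not called. The sums of 2 other lists were smaller at 3 dpa. Cardiomyocyte markers went from 28266 and 29072 CPM to 17615 and 17287 CPM, with 0 of 7 tested called in wild type and 2 called lower for mutant hearts. Endothelial and endocardial markers went from 975 and 1150 CPM to 750 and 808 CPM, with 0 of 6 called in either genotype. Oocyte and germ line markers were low, yet their sum also rose, from 1.36 and 1.29 CPM to 3.31 and 2.96 CPM. Only 1 of the 7 was tested, zp3b, and it was called higher in each genotype (log2 ratios 1.30 and 1.48). Most of these sums was zp3b, at 1.18 and 0.94 CPM uninjured and 3.00 and 2.73 CPM at 3 dpa. In contrast, zp2.1 was at 0 in all 4 libraries. The part of any cell type in the cyclin ratios was not tested.

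The genes nearest to each phase in their pattern over the 4 libraries were sought among 9773 other genes with at least 10 CPM in their highest library. Distance was Euclidean, in centred log2 CPM, from the mean over the tested cyclins of the phase. Nearest to the G2/M cyclins were ndc80, a kinetochore gene (distance 0.064), txnb, a thioredoxin (0.172), and PRC1, a spindle midzone gene (0.177). Nearest to ccna2 were the mitotic helicase gene ERCC6L (0.0946), the checkpoint kinase gene bub1 (0.137) and olfm4l2 (0.184). Nearest to the E cyclins were s100w (0.0846) and 2 genes known from immune cells, CARD9 (0.246) and NCF1 (0.280). Nearest to the mean of the D cyclins were ATP10D, a lipid flippase gene (0.025), chl1b, a cell adhesion gene (0.0329), and lamc1, a laminin subunit gene (0.0386). The D cyclins did not share that mean pattern. In uninjured hearts the mean was higher in the mutant (-0.19 against -0.53), as was ATP10D (457 against 363 counts), but ccnd1 was lower (1391 against 1670 counts). With 4 points per gene, a small distance is a description of these libraries.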

How the data were processed

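Per the labels' protocols, hearts were homogenized after dissection and RNA was taken with Trizol for Illumina libraries. The authors deposited raw counts per Ensembl gene ID for each library, made with HISAT2 and featureCounts on GRCz11 per the submitters' processing notes. Versions, strand setting and the handling of shared reads are not given in the sources used here.

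Counts were scaled by TMM over the 4 libraries (factors 0.898 to 1.12). A log2 ratio is a difference of edgeR log2 CPM with a prior count of 2. It was called at an absolute value of at least 1 with a Clopper-Pearson 95% interval of the 2 counts that left out equal abundance. The floor was 3 counts. edgeR 4.0.16 in R 4.3.3 fitted the additive model, and DESeq2 1.42.0 was the alternative. The procedures were tested on simulated data.

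The members and lists were chosen with earlier results of these data known. Named genes beyond the cyclins were, in each list, the 2 with the largest absolute wild-type injury ratio and any called against the list's majority, plus the 3 nearest in pattern per phase. CDK4, CDK6, CCNA1, CCNG2, tfa, serpina1 and zp2.1 were added after their values were seen. So were THBS1, itga2b, mpl, gp9, zp3b, mybl2a, col1a1a, COL1A2, PDGFRA and POSTN. Of the listed regulators, cdkn1d and ccno had no matching ID. Of the markers, vmhc, mpeg1.1, mfap4.1, mpx, pecam1, col3a1, hbba1 and hbba2 had none, so the leukocyte and erythroid lists are partial.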

Additional observations from a re-analysis of the deposited data

Results flagged for a closer look

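Under TMM scaling, the genotype difference of ccnd1 pointed in opposite directions in the 2 states, with counting intervals that left out 0 in each. The log2 ratio of mutant over wild type was -0.26 in uninjured hearts and 0.085 at 3 dpa. At 3 dpa the interval only just left out 0 (0.011 to 0.160), and the ratio moved between 0.066 and 0.115 with the scaling. The fall from 0.085 to 0.066 is larger than the margin of 0.011, so the interval does not leave out 0 under every scaling. Intervals that leave out 0 are common: of 16509 tested genes, 4372 had one below 0 in uninjured hearts and 3348 one above 0 at 3 dpa. Neither ccnd1 ratio reached the 2-fold line, and the difference between the states was not tested against the spread between hearts.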

How the results depend on the processing

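No paired analysis was possible because each group has 1 library, and no library could be left out of the additive fit without losing its only residual degree of freedom. Of 252 ratios of the cyclins recomputed under 5 other scalings and 2 other prior counts, 1 changed sign, that of the CCND2 copy ENSDARG00000051748 in the mutant, and none of the 16 called ones did. With the uninjured mutant library in place of the uninjured wild-type one, 6 cyclins in place of 7 were called higher in wild type at 3 dpa. The CCND2 copy ENSDARG00000070408 then fell just short of 2-fold, at 12.3 CPM in wild type at 3 dpa against 6.21 CPM in the uninjured mutant. The share of all tested genes called in that comparison is not given here. That exchange of libraries and the scaling without genes high in uninjured wild type were chosen after seeing the data. With a prior count of 10, cyclins called lower in the uninjured mutant became 1, the median of the G1/S cyclins there became -0.89, and all genes lower in the mutant at 3 dpa became 79. With a log2 threshold of 0.58, 1 cyclin was called higher and 4 lower in the uninjured mutant. All genes called then numbered 3723 higher and 2730 lower for injury in wild type, 3896 and 2564 in the mutant, 1559 and 1386 for genotype uninjured, and 989 and 387 at 3 dpa. Under total counts, 649 genes were lower with injury in wild type and 359 in the mutant, and the additive fit called 268 genes for genotype. The median injury ratio over all tested genes was then 0.29 for wild-type and 0.35 for mutant hearts. Between the genotypes after amputation, a filter on the mean gave 75 genes lower in the mutant, and no filter gave 650 higher and 318 lower. DESeq2 called 5027 genes for injury and 346 for genotype, against 7559 and 538 by edgeR. The causes were not tested. The uninjured E, A and B cyclins rest on 10 to 71 counts each, and ccnd3 on 0.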
